A study of Saccharomyces cerevisiae with 14 samples.

Results

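The nucleosome map described here is that of wild-type (WT) budding yeast, strain BY4741, as called by the authors on 1 list that pools WT replicates 1, 2 and 3. All calls on the 16 nuclear chromosomes were taken, which gave 63281 of the 316576 nuclear calls in the 5 pooled lists of the series. The other lists come from strains with altered SNF2, the ATPase of the SWI/SNF chromatin remodeller, labelled dAT, dSnAC, CD and dSnf2, and they are not compared here. WT cells were grown in YPD at 30 °C to an OD600 of 0.8 and fixed with 1% formaldehyde for 15 min. Chromatin was digested with micrococcal nuclease (MNase), which cuts the linker DNA between nucleosomes, and gel-purified mononucleosomal DNA was sequenced from PCR-free libraries.

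A nucleosome is DNA wrapped around an octamer of histones, and its midpoint is called the dyad. In yeast, most promoters hold a nucleosome-depleted region kept open by DNA sequence, general regulatory factors and the remodeller RSC, flanked by the -1 nucleosome upstream and the +1 nucleosome on the gene side. Remodellers such as ISW1, CHD1 and INO80 pack the following nucleosomes against +1 in an evenly spaced array that runs into the gene.

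Each call has a dyad, the SD of the dyads of its reads (a small SD means that the nucleosome lay at nearly the same place in all cells, a large one that it was spread out) and an occupancy. Occupancies were whole multiples of 1 step in 100% of calls, within 0.01 of a step, so a step was taken to be 1 read. The nuclear calls then sum to 64957209 reads, and the median call held 1030 reads, with an exact 95% Poisson interval of 968 to 1095. Occupancy is given below relative to the median call, set to 1. The list has no replicate values, so the spreads given are quartiles over calls or genes, no test between samples was possible, and intervals cover counting error only.

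The calls fitted the strain label only in part. BY4741 lacks MET15 (named MET17 in the annotation), URA3 and LEU2 and carries a partial deletion of HIS3. MET17 held 0 calls, URA3 held 4 calls with 8 reads in all, and HIS3 held 3 calls, of which 2 had an occupancy of 0.25 or more. LEU2 held 7 calls with a median occupancy of 1.04, at the level of the genome's median call, which goes against the label. Upstream of it, calls of 1.32 at -103 bp and 0.108 at -261 bp were followed by none for 6333 bp. Whether the cells carried a LEU2 marker was not tested, nor was the part of repeated sequence in the stretch without calls. SNF2 held 26 calls, all of them at 0.25 or more, with a median of 0.883.

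Neighbouring dyads lay 168 bp apart at the median (quartiles 158 and 183 bp), and 62.2% of the distances fell between 150 and 180 bp. There were 5.29 calls per kb, and footprints of 147 bp around the dyads covered 77.7% of the span between the outermost calls. The median differed little between chromosomes, with 167 bp on the lowest and 169 bp on the highest. No dyads lay closer than 148 bp, and 5927 pairs (9.37%) lay at exactly that distance, against 757 pairs at 1 bp more. The list thus has a sharp lower limit of distance, and the commonest distance above it was 163 bp. Calls at the minimum distance from the one before were more spread (SD 33.1 bp) and lower (occupancy 0.851) than calls over 160 to 170 bp away, which had an SD of 27.4 bp and an occupancy of 1.04.

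The median dyad SD was 29.9 bp, with quartiles of 24.3 and 35.5 bp. Dyads spread evenly over a whole footprint would give an SD of 42.4 bp, and 1.29% of calls reached it. Across calls, a larger SD went with a lower occupancy (Spearman's rho -0.44, n = 63281 calls, a description since calls share libraries). The 2875 calls with an occupancy of 1.5 to under 2 had a median SD of 20.3 bp, against 32.8 bp for the 21261 calls of 0.75 to under 1. A larger conditional position, a deposited fraction that no source here defines, also went with a smaller SD (rho -0.41, n = 63277 calls).

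The minimum distance bears on every depleted region. A stretch between dyads of up to 295 bp cannot take a further call, while a wider one can, even where very few reads lie. In all, 2225 calls (3.52%) had an occupancy below 0.25, of which 1276 were below 0.1. How many of them filled wide stretches in this way was not tested. Low calls were more frequent near chromosome ends, at 29.7% of the 461 calls within 5 kb of the outermost dyad. Depleted regions are therefore given for all calls and again for the 61056 calls of 0.25 or more.

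Using all calls, the promoter gap, the widest dyad-to-dyad distance centred between 350 bp upstream and 50 bp downstream of the start codon, had a median of 241 bp (quartiles 186 and 269 bp, 5758 genes). Of these, 24 genes, or 0.417%, had a gap of 300 bp or more. With calls of 0.25 or more the median was 266 bp (quartiles 231 and 292 bp, 5705 genes), and 1182 genes, or 20.7%, had a gap of 300 bp or more. A call below 0.25 lay in the promoter window of 1396 of 5869 genes, or 23.8%. In the list of all calls, the +1 of 495 genes and the -1 of 728 genes were themselves such low calls.

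**Figure D1:**
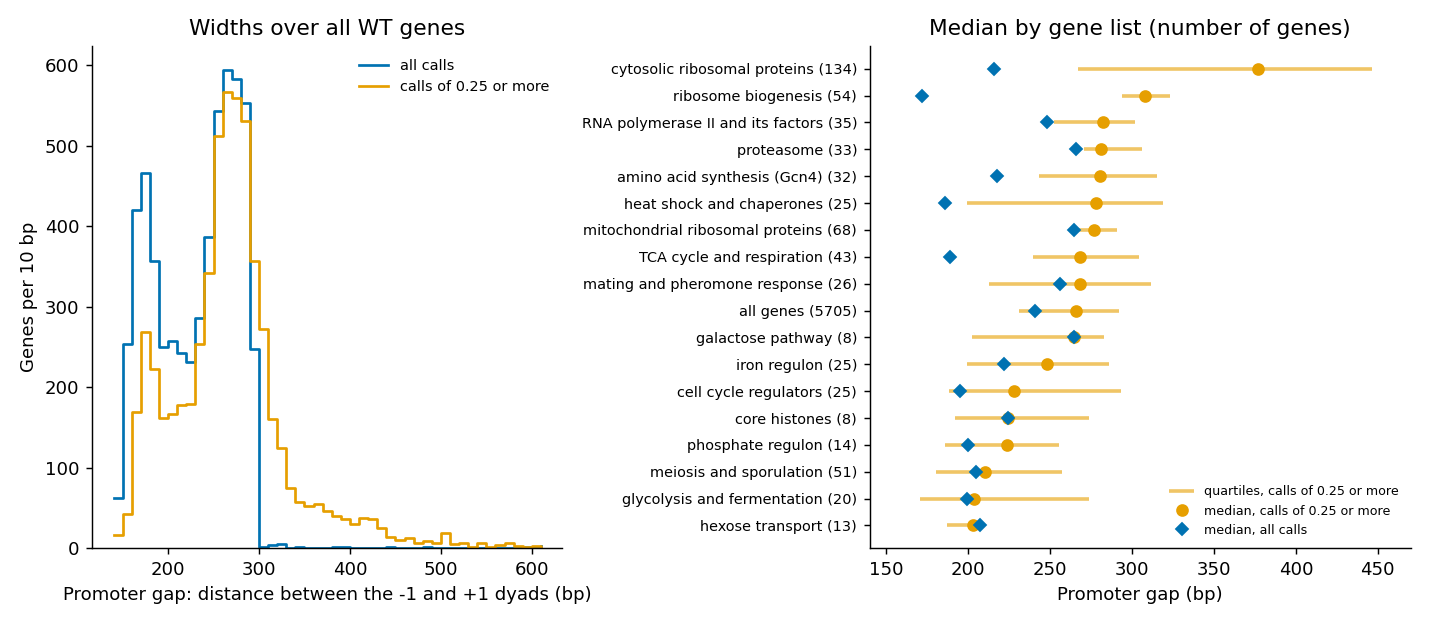
Left, number of WT genes per 10 bp of promoter gap (distance between the -1 and +1 dyads), from all calls and from calls of 0.25 or more; the all-call curve has few genes above 295 bp, beyond which a further call fits. Right, median gap in bp of each gene list for both sets of calls, with quartiles as bars for calls of 0.25 or more; cytosolic ribosomal proteins (377 bp) and ribosome biogenesis (308 bp) stand at the top and hexose transport (203 bp) at the bottom; the axis of widths does not start at 0.

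The widths fell in 2 groups, as the histogram of gap widths shows, one near 170 bp, about the usual distance within arrays, and a larger one near 270 bp. With calls of 0.25 or more, the 1125 genes with a gap of 260 to under 280 bp had a +1 SD of 20.4 bp and a +1 occupancy of 1.37. The 437 genes with a gap of 160 to under 180 bp had a +1 SD of 25.9 bp and an occupancy of 1.08, and a longer median distance to the next gene upstream (691 bp, against 353 bp at 260 to under 280 bp). At 400 bp and more, 264 genes had a +1 SD of 25.2 bp and an occupancy of 1.16. The classes of 240 to under 350 bp had the lowest +1 SD, at 20.2 to 21.7 bp, and +1 occupancy was highest at 240 to under 260 bp, with 1.39.

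The model genes PHO5, GAL1, SUC2, CHA1, RPL3 and TDH3 show how these gaps look in the calls.

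**Figure D2:**
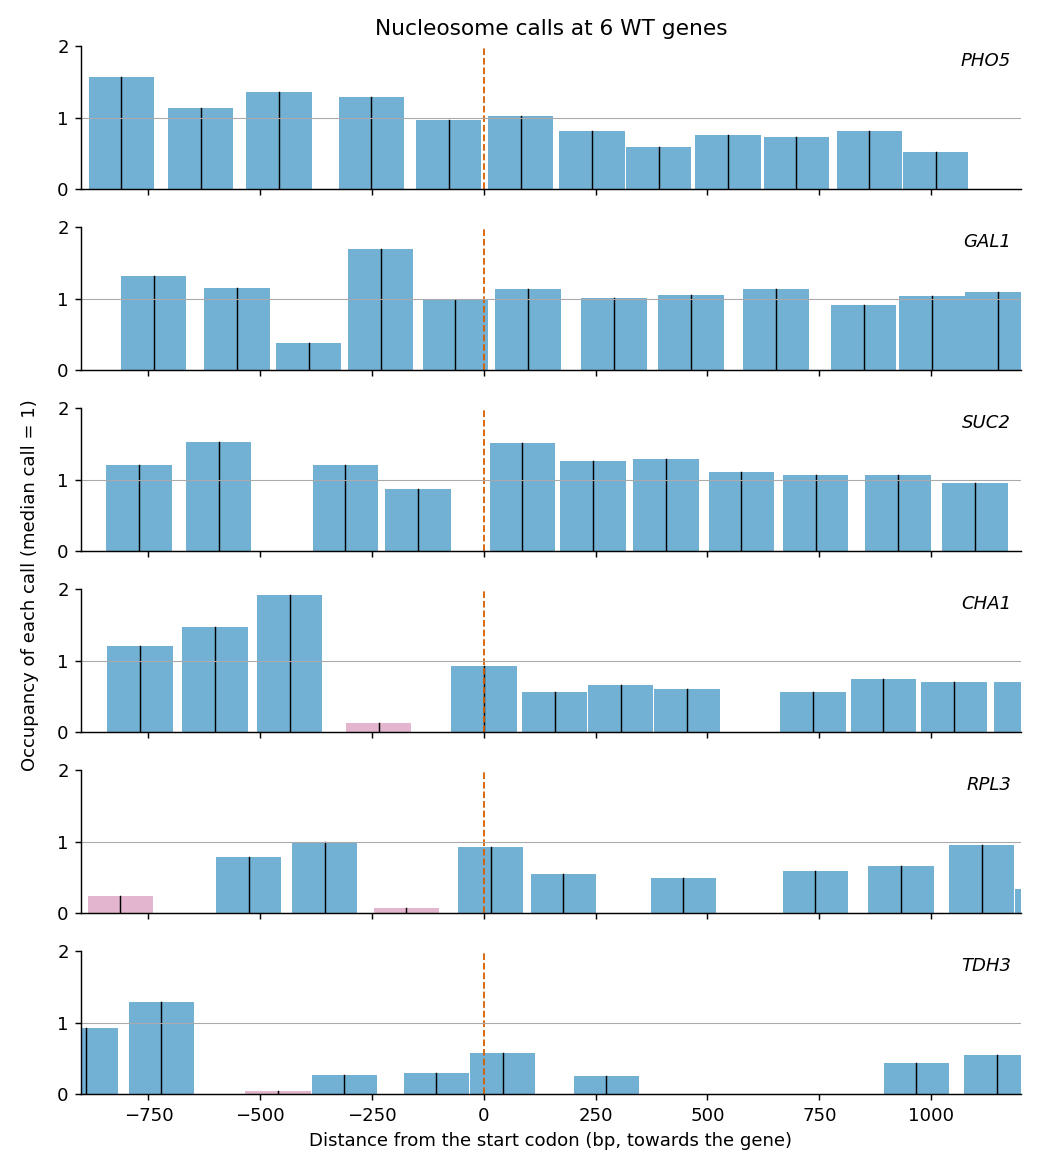
Calls at these WT genes, as boxes of 147 bp centred on the dyad (black line), placed by distance from the start codon (dashed line) in bp; height is occupancy (median call = 1), blue for 0.25 or more and pink for less. PHO5 and GAL1 promoters are covered by calls, while CHA1 and RPL3 hold a low call in the gap and TDH3 low calls throughout.

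PHO5 (chromosome II, 429548 to 430951, C strand) encodes the repressible acid phosphatase, which is off in rich medium. Its promoter held dyads at -633, -458, -252 and -79 bp from the start codon, with occupancies of 1.14, 1.35, 1.29 and 0.972. The widest distance among them was 206 bp, between -458 and -252, the place where the accessible site between positioned nucleosomes is known from classical work on this promoter. All 4 promoter calls stood near or above the level of the median call. Within the gene, the call at 1010 bp had 0.522 and the one at 1177 bp held 1 read (0.000971), and PHO5 has a similar neighbouring copy, PHO3, whose part in these values was not tested.

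GAL1 (chromosome II, 279021 to 280607, W strand), the galactokinase gene repressed in glucose, shares its upstream region with GAL10. A sharp and high call lay at -231 bp (occupancy 1.70, SD 16 bp), next to a low one at -392 bp (occupancy 0.376, SD 20.0 bp). SUC2, the glucose-repressed invertase gene (chromosome IX, 37385 to 38983, W strand), held calls at -593, -310 and -147 bp with occupancies of 1.53, 1.20 and 0.875. Its distances of 283 bp (-593 to -310) and 233 bp (-147 to 86) were both wider than the usual spacing.

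CHA1 (chromosome III), the serine and threonine deaminase gene, is induced by serine. Between a call of 1.92 at -434 bp and one of 0.922 at the start codon it held a single call of 0.126 at -235 bp. Its gap was 235 bp with that call and 434 bp without it. RPL3, which encodes a protein of the large ribosomal subunit, showed the same pattern, with a call of 0.0748 at -173 bp between calls of 1.00 at -356 bp and 0.918 at 15 bp. Its gap was thus 188 bp with all calls and 371 bp with calls of 0.25 or more.

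TDH3, the main glyceraldehyde-3-phosphate dehydrogenase gene and among the most active in yeast, had no call above 0.575 between -460 and 967 bp. Its coding region is nearly identical to that of TDH2, so its values within the gene are uncertain. The promoter calls at -460, -312 and -106 bp had occupancies of 0.0466, 0.275 and 0.293.

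The +1 dyad lay at -13 bp from the start codon at the median (quartiles -96 and 19 bp) with all calls, and at -9 bp (quartiles -68 and 18 bp) with calls of 0.25 or more. The start codon fell within the +1 footprint in 64.4% of 5758 genes, and in 71.9% of 5705 genes with calls of 0.25 or more. The footprint of +1 lay wholly upstream of the start codon in 29.6% of genes and wholly downstream in 6.04% (all calls). With calls of 0.25 or more these shares were 23.5% and 4.57%. Transcription start sites are not in the files or the annotation used, so positions are given from the start codon only.

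With a median SD of 23.0 bp, +1 was sharper than -1 (24.7 bp), the calls within genes (29.1 bp) and the last nucleosome of the gene (30.0 bp). Within genes, +1 was sharper than the last nucleosome in 73.2% of 5697 genes and higher in 68.5%. Its median occupancy was 1.27, against 1.20 for -1, 1.08 for the last and 0.981 within genes. Where +1 was sharper it was also higher (rho -0.58 between SD and occupancy, n = 5758 genes), and the rest of the gene's array was sharper too (rho 0.30, n = 5412 genes). Both coefficients describe genes of the same pooled libraries.

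Of the sharpest 10% of calls of 0.25 or more (SD up to 20.3 bp), 29.6% were +1, 26.5% were +2, 13.2% were +3 and 11.4% were -1 nucleosomes. Those roles made up 8.52%, 8.62%, 8.09% and 5.94% of all such calls. Of the fuzziest 10% (SD from 38.8 bp), 78.1% lay at +5 or beyond, a role that made up 44.3% of the calls.

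Among genes with a standard name, RRP6, which encodes a nuclear exosome nuclease, had the sharpest +1 with an SD of 9.57 bp at -193 bp. VNX1, a vacuolar cation exchanger gene, followed with 10.8 bp at 23 bp and an occupancy of 2.01. CLF1, a splicing factor gene, had the highest +1 (occupancy 2.29, SD 15.8 bp, at 24 bp). At the other end stood YHM2, a mitochondrial carrier gene, with a +1 SD of 45.8 bp, and SER3, a serine synthesis gene, with 42.0 bp. The even spread over a footprint, 42.4 bp, lies between these values.

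Downstream of +1, nucleosomes followed at 167, 332, 497, 660 and 825 bp for +2 to +6 (medians over 5412, 5016, 4573, 4099 and 3603 genes). Per gene, the distance from +1 to +5 divided by its 4 steps had a median of 165 bp (quartiles 161.5 and 171 bp, 4573 genes), and 164.75 to 166 bp over the 16 chromosomes. The median of the single steps was 167 bp into +2, 165 bp into +3, 163 bp into +4 and +5 and 162 bp into +6. Farther on it was larger, with 164 bp into +7, 165 bp into +10 and 168 bp into +15. The spread of the position between genes grew at each step, with an interquartile range of 12 bp at +2, 35 bp at +5 and 131 bp at +10.

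Along the array, dyads became more spread and calls lower. The median SD was 23.0 bp at +1 and 22.7 bp at +2, then 24.3, 26.6, 28.9 and 30.7 bp at +3 to +6, and 37.7 bp at +15. Occupancy was 1.28 at +1, 1.13 at +2 and 1.05 at +3, was lowest near +8 at 0.885, and stood at 0.963 at +15. The share of steps at the minimum distance was 7.71% into +2, 10.7% into +5 and 12.7% into +8.

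**Figure D3:**
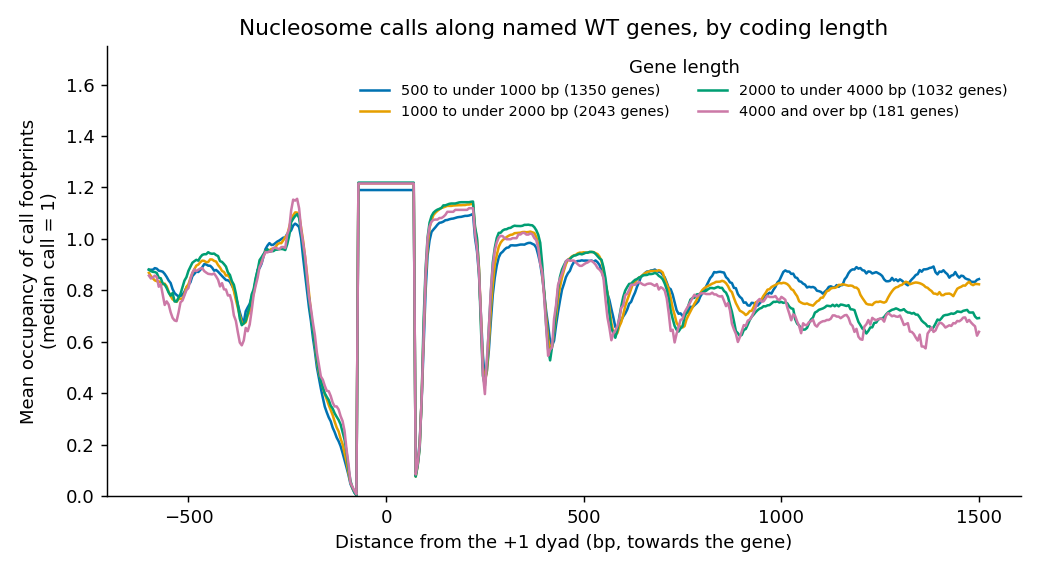
Mean occupancy (median call = 1) of call footprints against the distance from the +1 dyad in bp, for WT genes with a standard name in 4 classes of coding length. All curves are flat at +1 since they are aligned there; the waves that follow fade with distance in each class.

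The nucleosome repeat length, the slope over the 6 peaks of all dyad-to-dyad distances, was 159 bp. The peaks lay at 158, 326, 488, 644, 798 and 955 bp. The first is the edge of the running mean of 21 bp over the pairs at 148 bp, and beyond that edge the first maximum lay at 165 bp. The peaks after the first alone gave a slope of 157 bp, a choice made after seeing the data. The steps from the second peak on were 162, 156, 154 and 157 bp, shorter than the 165 bp found per gene. Over chromosomes the slope was between 154 and 160 bp (SD 1.59 bp), and with the sharper calls only it was 155 bp.

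Long and short genes differed more inside than at their start. In the 229 genes of 4000 bp or more, the SD of nucleosomes between +1 and the last had a median of 37.1 bp, against 25.5 bp in the 847 genes below 500 bp, and the classes between rose in order (26.0, 27.7, 30.4, 32.3 and 35.0 bp). Spacing over the whole gene, the distance from +1 to the last dyad divided by its number of steps, also grew with length. It was 180 bp in the longest class, against 166 bp in the shortest. It is a mean per gene, so wide distances between calls count in it. As far as +15, the median single steps in the longest class were 160 to 171 bp. The part of wide distances and missing calls in the growth was not tested. The spacing of +1 to +5 did not grow with length. It was 163 bp in the longest class, against 164 to 166 bp in the classes from 500 to under 4000 bp. The shortest class had 162 bp, but this spacing needs at least 5 dyads per gene, and that class had 3 at the median. Its value thus comes from a minority of short genes, those with enough calls, and cannot be set beside the others. The median +1 SD ran the other way, with 20.6 bp in the longest genes, against 25.2 bp in the shortest. Across 5412 genes, length and the SD within the gene had a rho of 0.55.

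At the same place in the array, the classes lay closer together. At +5 the SD was 27.8 bp in genes of 4000 bp or more, 28.0 bp in those of 2000 to under 4000 bp and 29.4 bp in those of 1000 to under 2000 bp. By +10 it was 36.4, 36.2 and 32.9 bp in the same classes. The class of 1000 to under 2000 bp, where +10 stands near the end of the gene, thus levelled off. Occupancy at +8 was 0.802, 0.844 and 0.929 in the same order. The longest class had 28 nucleosomes per gene at the median and the shortest had 3.

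**Figure D4:**
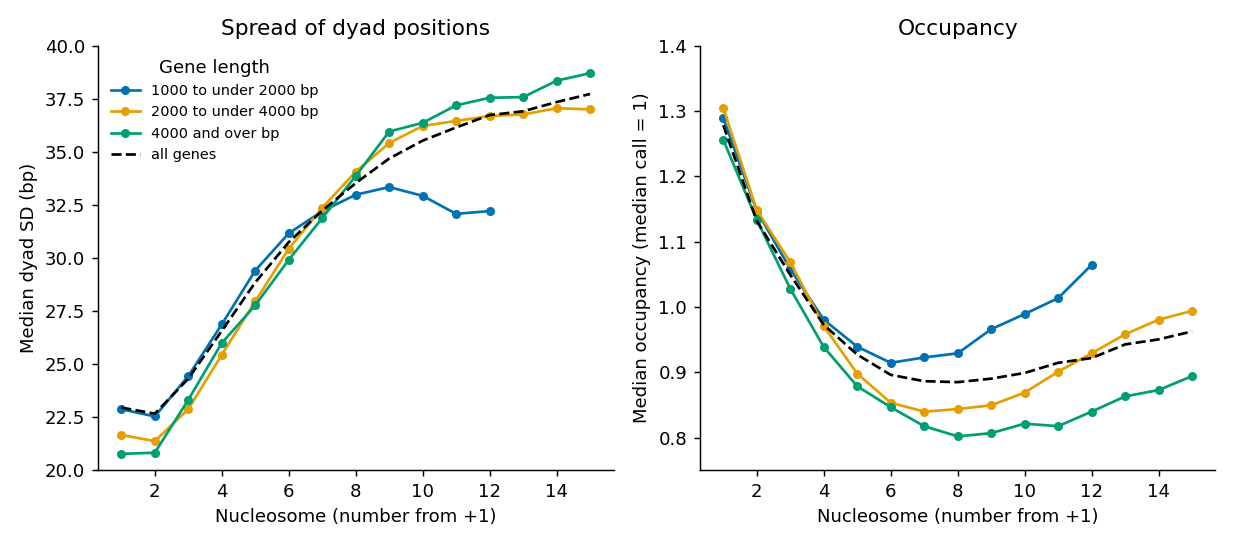
Median dyad SD in bp (left) and median occupancy (right, median call = 1) of the WT nucleosomes numbered from +1, for 3 classes of gene length and for all genes. SD climbs past +2 in all classes and levels off near +9 in genes of 1000 to under 2000 bp; occupancy dips and then turns up again, earliest in that class. Neither axis starts at 0.

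The distance between the +1 and the last dyad came in steps. No dyads lay closer than 148 bp, which limits how many calls fit in a given distance. The part of that limit in the steps and in the SD values below was not tested. With calls of 0.25 or more, 125 genes had a distance of 480 to 499 bp and 108 had one of 640 to 659 bp, while 9 genes had one of 560 to 579 bp and 16 one of 720 to 739 bp. Genes at the full steps had sharper nucleosomes between the ends. Their median SD was 23.7 bp at 480 to 499 bp and 23.9 bp at 640 to 659 bp, against 33.0 bp at 560 to 579 bp and 31.0 bp at 720 to 739 bp. The same alternation was seen near 800 bp (24.2 bp at 820 to 839 bp, 87 genes) and 900 bp (32.0 bp at 900 to 919 bp, 46 genes) and faded in longer genes.

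**Figure D5:**
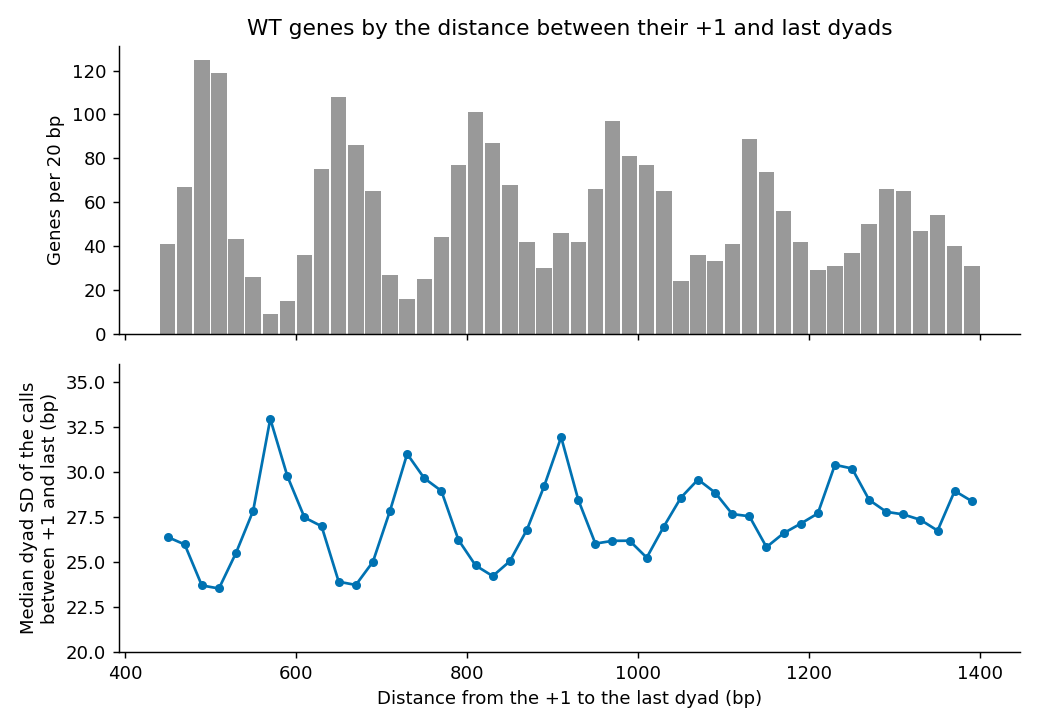
Top, number of WT genes per 20 bp of distance between the +1 and the last dyad; bottom, the median dyad SD in bp of the nucleosomes between them (calls of 0.25 or more; this axis does not start at 0). Genes are most numerous near the distances where SD is lowest and fewest near those where it is highest.

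Sorted into 5 equal classes of the remainder after division by the repeat length of 159 bp, the genes had a median SD of 27.4, 28.2, 30.6, 31.1 and 29.7 bp. With the spacing of 165 bp as the divisor and distances of 450 to 1200 bp only, a choice made after seeing the data, the classes had 24.8, 27.2, 30.3, 26.7 and 25.7 bp. Among genes with 5 nucleosomes from +1 to the last (calls of 0.25 or more), the SD within was 23.8 bp at a spacing of 160 to under 170 bp (183 genes), against 26.3 bp below 160 bp (76 genes) and 29.6 bp at 180 bp and over (121 genes). At 170 to under 180 bp (86 genes) the SD was 25.6 bp. The occupancy within was 0.931 below 160 bp, 1.11 at 160 to under 170 bp, 1.19 at 170 to under 180 bp and 0.806 at 180 bp and over, so it was highest one class above that of the lowest SD.

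Among genes with at least 8 nucleosomes, the SD of the successive distances from +1 to +8 was 11.4 bp at the median. SET3, which encodes a histone deacetylase complex subunit, had among the most even arrays (SD of the distances 2.56 bp), with dyads at 30, 193, 354, 514, 675, 833, 993 and 1159 bp from its start codon. PGU1, a pectin-degrading enzyme gene, had 2.34 bp. Its widest promoter distance was only 173 bp, so its array is counted from a +1 at -159 bp with no wide gap before it. The least even arrays were in FLO11, a cell-surface flocculin gene (529 bp), and SSA1, an HSP70 chaperone gene (302 bp). FLO11 has internal repeats and SSA1 a nearly identical copy, SSA2, so missing calls and reads lost in mapping cannot be told apart there.

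At the ends of genes, the last dyad lay at -24 bp from the stop codon at the median (quartiles -91 and 43 bp), and the stop codon was within its footprint in 52.5% of 5724 genes. The gap beyond it was 199 bp wide (quartiles 177 and 252 bp), and 211 bp with calls of 0.25 or more. Its width differed with the neighbour. Tandem genes, whose downstream neighbour starts there, had a gap of 253 bp, against 194 bp in convergent genes, where both neighbours end (calls of 0.25 or more, 2840 and 3029 genes). Their last nucleosome was sharper, with an SD of 25.9 bp, against 33.3 bp in convergent genes.

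In convergent genes the ends of the arrays stayed spread. Counted back from the last nucleosome in genes with enough of them, the SD was 34.8, 35.1, 34.8 and 34.1 bp in 1351 convergent genes. In 1272 tandem genes it was 25.8 bp at the last and 27.6, 30.9 and 32.8 bp in the 3 before it. The last nucleosomes of tandem genes were thus sharper than those before them, while in convergent genes they differed little (all calls).

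Many neighbouring genes shared a gap. With calls of 0.25 or more, the gap of both genes was the same in 708 of 1444 divergent pairs (49.0%), with a median width of 274 bp. All 173 pairs with 300 to under 400 bp between the start codons shared it, as did 291 of 295 pairs at 200 to under 300 bp. At 400 to under 600 bp it was 159 of 281 pairs, and at 600 to under 1000 bp 9 of 381. In that class the 2 separate gaps were 252.5 and 258.5 bp wide. With all calls, 643 of 1463 divergent pairs (44.0%) shared a gap. It was 287 of 297 pairs at 200 to under 300 bp, 151 of 173 at 300 to under 400 bp and 114 of 282 at 400 to under 600 bp. The windows in which gaps were sought overlap less as the start codons lie farther apart, so the fall of sharing with distance is partly set by them. The +1 nucleosomes beside a shared gap had a median SD of 19.8 bp, against 23.6 bp where each gene had its own, but the separate pairs lay farther apart. At 400 to under 600 bp the values were 21.1 bp beside a shared gap and 21.6 bp beside separate ones, and 22.3 and 21.8 bp with all calls.

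In tandem pairs, the gap after the upstream gene was the promoter gap of the next in 1474 of 2687 pairs (54.9%, median 272 bp). Where they were separate, the gap at the gene end was 189 bp wide and that of the promoter 254 bp. Among convergent pairs 857 of 1447 shared the gap (59.2%), and it was 198 bp wide. With all calls, 1292 of 2706 tandem and 848 of 1449 convergent pairs shared it. Pairs of either kind 600 bp or more apart could not share a gap, since the windows do not meet there. They are counted in these shares, with 381 tandem and 71 convergent pairs at 600 to under 1000 bp and 282 and 59 beyond (calls of 0.25 or more). Over all genes, promoter gaps of divergent and tandem genes were alike in width (265 bp and 267 bp), while +1 had an SD of 21.6 bp in divergent genes and 23.2 bp in tandem ones.

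Genes were also grouped in 17 lists by function. Cytosolic ribosomal protein genes, which make the ribosome and are among the most transcribed in growing cells, had a median gap of 377 bp (134 genes), against 266 bp over all genes (calls of 0.25 or more). A gap of 300 bp or more was found in 94 of those 134 genes (70.1%), against 20.7% of all genes. With all calls the list's median was 216 bp, against 241 bp over all genes, and 0 of 137 genes reached 300 bp. A call below 0.25 lay in the promoter window of 102 of the 137 genes, so the order of the list depends on those calls.

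RPL19A, which encodes a protein of the large subunit, had a gap of 665 bp between -670 and -5 bp. The list's +1 lay at 11 bp and was more spread and lower than over all genes (SD 27.5 bp against 22.3 bp, occupancy 0.995 against 1.31). Occupancy within the genes was 0.683 with all calls, against 0.981 over all genes. Most of these genes have a near-identical second copy. The 19 genes without an A or B copy had an occupancy within of 0.689 and a gap of 414 bp, and the 118 with one had 0.680 and 370 bp.

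Ribosome biogenesis genes, which process rRNA and assemble ribosomes, had a median gap of 308 bp (54 genes, 37 of them at 300 bp or more, calls of 0.25 or more). Their +1 was sharper than over all genes (SD 19.1 bp against 22.3 bp) but lower (occupancy 1.22 against 1.31). NOP56, a snoRNP core protein gene, had a gap of 375 bp between -367 and 8 bp, with a call of 0.0330 at -140 bp within it. With all calls the list's median was 172 bp, the narrowest of the 17 lists, and 39 of 54 genes held a call below 0.25 in the promoter window.

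Genes of glycolysis and fermentation had spread nucleosomes throughout. Their +1 SD was 34.8 bp and the SD within genes 37.7 bp, against 22.3 and 29.1 bp over all genes (20 genes, calls of 0.25 or more). Occupancy within was 0.699, against 0.981. The median gap was 203.5 bp and 4 of 20 reached 300 bp, close to the share over all genes. PGI1, the phosphoglucose isomerase gene, had a gap of 574 bp, and GPM1, the phosphoglycerate mutase gene, one of 148 bp. PYK2, the less used pyruvate kinase gene, had a +1 SD of 18.3 bp, while CDC19, the main one, had 37.4 bp. ENO1, ENO2, TDH2 and TDH3 have near-identical copies and are uncertain.

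Some of the other lists had sharp +1 nucleosomes. Mitochondrial ribosomal proteins had a +1 SD of 18.5 bp and an occupancy of 1.47 at a gap of 277 bp (68 genes, calls of 0.25 or more), and the SD within genes was 22.9 bp. Proteasome genes had a +1 SD of 19.6 bp at a gap of 281 bp (33 genes). RNA polymerase II and general transcription factor genes had 19.6 bp at 282 bp (35 genes). Genes of the TCA cycle and respiration had 22.6 bp at 268 bp (43 genes), near the values over all genes. Gaps of 300 bp or more were found in 15 of 68, 10 of 33, 11 of 35 and 14 of 43 genes of these lists, against 20.7% over all genes, and the first of these shares is near that value. With all calls, the same lists had median gaps of 264.5, 266, 248 and 189 bp, against 241 bp over all genes.

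In the meiosis, hexose, galactose, phosphate and histone lists, the share of gaps of 300 bp or more was below the 20.7% over all genes (calls of 0.25 or more). All but the meiosis list hold 14 or fewer genes with a gap. Meiosis and sporulation genes, which are off in growing haploid cells, had a median gap of 210 bp, 2 of 51 at 300 bp or more, and an occupancy within of 1.16, the highest of the lists. Hexose transport genes had a gap of 203 bp and 0 of 13 at 300 bp or more. Galactose pathway genes had 264.5 bp and 0 of 8, with 0 promoters holding a call below 0.25. Phosphate regulon genes had 224 bp and 2 of 14. The core histone genes had a gap of 224.5 bp, 1 of 8 at 300 bp or more, a +1 SD of 33.6 bp and an occupancy within of 0.667. HXT6 and HXT7 of the hexose list are near-identical copies, and their occupancy within was 0.0214 and 0.0447 with all calls, so it is uncertain.

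The remaining lists of regulated genes varied. Heat shock and chaperone genes had a gap of 278 bp and 10 of 25 at 300 bp or more. Of the amino acid synthesis genes under Gcn4, 32 of 33 listed symbols matched the annotation, with a gap of 280.5 bp and 13 at 300 bp or more. Mating genes had 268 bp with 8 of 26, iron regulon genes 248 bp with 5 of 25, and cell cycle regulators 228 bp with 5 of 25. The shares of these last lists, iron and cell cycle, are near the 20.7% over all genes. Iron regulon genes had a +1 SD of 30.8 bp and cell cycle genes 28.2 bp. Within these lists single genes varied widely: AHA1, an HSP90 co-chaperone gene, had a gap of 479 bp and HSP12, a small stress protein gene, one of 177 bp. With all calls, the heat shock, Gcn4, iron and cell cycle gaps were 186, 217.5, 222 and 195 bp. Those were below the 241 bp over all genes, while mating genes had 256 bp. In that set 0 genes of the 17 lists reached 300 bp, against 0.417% of all genes.

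Across all genes with calls of 0.25 or more, the 1182 genes with a gap of 300 bp or more had an occupancy within of 0.883, against 1.00 in the 4523 others. The relation rests on the set of calls: rho between gap and occupancy within was -0.26 (n = 5334 genes) with calls of 0.25 or more and 0.044 (n = 5412 genes) with all calls. Nor did it run one way, since 437 genes with gaps of 160 to under 180 bp had 0.945 and 345 genes at 200 to under 220 bp had 1.09. The +1 SD was 22.0 bp in genes with a gap of 300 bp or more, against 22.4 bp in the others. CCW12, an abundant cell wall protein gene, had a gap of 825 bp and TEF1, a translation elongation factor gene, one of 630 bp; TEF1 has a near-identical copy, TEF2. BUD5 headed the list with 2523 bp, next to the mating-type locus, which has copies elsewhere on the chromosome.

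The SD of +1 also differed with the distance to the next gene upstream. With calls of 0.25 or more, the SD of +1 was 20.9 bp at 150 to under 250 bp (804 genes) and 20.6 bp at 250 to under 400 bp (1579 genes). It was 26.6 bp below 150 bp (244 genes) and 26.3 bp at 1000 bp and over (810 genes). The gap was widest at 250 to under 400 bp, with 276 bp, and was 244 bp at 1000 bp and over.

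Dyad-free stretches of 300 bp or more numbered 416 with all calls, of which 189 lay within genes, 95 in the outer 10 kb of chromosomes and 22 in promoters. With calls of 0.25 or more there were 1861, of which 979 (52.6%) lay in promoters. A further 247 lay within genes, 157 at gene ends and 85 over tRNA genes. The share of all dyad-to-dyad distances in each of these places was not computed, so the counts do not show an excess in any of them. With all calls, the stretches within genes had a median width of 658 bp, and the widest spanned 10607 bp. Deleted sequence and reads lost in mapping can leave such stretches too, and their part was not tested. The midpoint of 57 of 274 tRNA genes (20.8%) lay in no footprint or in one below 0.25, a share like the 20.7% of 5865 protein-coding genes. The makeup differed: a call below 0.25 covered 42 of the tRNA midpoints and 72 of the protein-coding ones. Where it lay in a footprint, the median occupancy was 0.345 at tRNA genes, against 0.807 at snoRNA genes and 0.927 at protein-coding genes. Many tRNA genes have identical copies, whose part in these values was not tested.

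Within 5 kb of the outermost dyad of a chromosome, 29.7% of 461 calls were below 0.25, the median occupancy was 0.799 and the median distance was 177 bp. At 50 kb and beyond, 3.16% of 55750 calls were below 0.25, and the medians were 1.00 and 168 bp. Genes in the outer 10 kb were left out of the values per gene.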

How the data were processed

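Nucleosome calls were made by the authors on merged WT replicates 1, 2 and 3, and Bowtie and the build sacCer3 are named in the submitters' processing notes. No source used here names the caller, its minimum distance or its filters. Per the file headers, each call has a dyad, a dyad SD (both in bp), an occupancy and a conditional position. The deposited occupancy is a coverage signal of unstated scaling, and the deposited conditional position is a fraction (blank in 4 calls).

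Occupancy was divided by the median call outside chromosome XII 450000 to 470000 (rDNA). Genes were 6002 nuclear protein-coding genes of the RefSeq R64 annotation, with strands from their systematic names, and 133 in the outer 10 kb were left out, which kept 5869. Of these, 5758 had a gap centred from -350 to 50 bp of the start codon. +1 is the dyad on its gene side. The last nucleosome is on the gene side of the widest gap centred from -150 to 250 bp of the stop codon. The repeat length used a running mean of 21 bp. Computations used Python 3.11.15, NumPy 2.4.6, pandas 2.3.3 and SciPy 1.17.1, and the functions were tested on simulated data.

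With 1 pooled list there was no test. The genes named are model genes of chromatin work, the 8 at each end of a measure among genes with a standard name, or the widest and narrowest gaps of a list, and some are not reported here. Members and lists were chosen with earlier results of these data known.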

Additional observations from a re-analysis of the deposited data

Results flagged for a closer look

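Outside the nuclear map, the WT list also holds 432 calls on the mitochondrial genome, which has no histones and enters no comparison above. They held 24119 reads, with a median occupancy of 0.0481 relative to the median nuclear call and a median dyad SD of 33.0 bp. Their median distance was 188 bp, and 11.1% of the distances were at 148 bp. By comparison, 1276 nuclear calls were below 0.1 and had a median dyad SD of 33.0 bp.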

How the results depend on the processing

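Of 90 alternative values, 40 stayed within a set limit of the values given and 50 moved. The limit was the 95% interval of the median, a fixed ratio for counts and the SD over chromosomes for the repeat length. Small shifts can thus count as moved, such as a median distance of 169 bp against 168 bp. The ribosomal protein gap was below that of all genes with all calls (216 against 241 bp) and above it without calls below 0.25. Without calls below 0.25, the median dyad SD was 29.8 bp, the promoter gap 266 bp, +1 at -9 bp with an SD of 22.3 bp, the spacing of +1 to +5 165.5 bp, the 3′ gap 211 bp, the divergent gap 265 bp, the ribosomal protein gap 377 bp, and there were 1861 stretches and 1182 promoters of 300 bp or more. Without calls below 0.5, these were 29.7 bp, 268 bp, -7 bp with 22.2 bp, 165.5 bp, 213 bp, 267 bp, 450 bp, 2421 and 1333, the median distance was 169 bp and the SD within genes in the middle remainder class 30.0 bp (30.6 bp as given). Without the 10% of calls of lowest conditional position, the SD was 28.8 bp, the promoter gap 246 bp, the divergent gap 244 bp, the last dyad at -38 bp, the 3′ gap 207 bp, the SD in that class 29.2 bp, and there were 5113 stretches and 325 promoters; spacing in the longest genes was 247 bp, as calls are missing by construction. With other gap windows, the promoter gap was 226 bp, the divergent gap 225 bp, the ribosomal protein gap 200 bp, +1 at -5 bp with an SD of 22.7 bp, the last dyad at -35 bp and the 3′ gap 188 bp. Genes with a standard name had a +1 SD of 22.6 bp. With gaps of at least 200 bp, +1 lay at -8 bp with an SD of 21.9 bp, the SD in that class was 29.7 bp and the ribosomal protein gap 239 bp. The repeat length was 162 bp from the first 4 peaks, 155 bp from sharp calls and 157 bp without the first peak, the last 2 chosen after seeing the data. A limit of 250 bp gave 5999 stretches and 2545 promoters, and one of 400 bp gave 262 and 10. Apart from the missing calls named, the cause of these shifts was not tested.

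No paired analysis was possible because the 3 WT samples are pooled in 1 list, and leaving out a replicate could not be run for the same reason. The planned search of promoters for poly(dA:dT) was not run, since no sequence was used here.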

Other observations

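The highest nuclear call had an occupancy of 6.24 (SD 31.7 bp) and lay on chromosome VIII, beside YHR054C in the CUP1 repeat region. The next, of 2.47 (SD 28.2 bp), lay on chromosome III beside HMRA1, one of the mating-type copies. The effect of the repeated sequence on these heights was not tested.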
